A study of Bos taurus with 27 samples.

Results

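Desmosome genes were followed in the rumen epithelium (RE), the stratified squamous lining of the forestomach, of Japanese Black cattle. The group comprises 10 genes, namely the desmogleins DSG1, DSG2 and DSG3, the desmocollins DSC1, DSC2 and DSC3, the plaque proteins JUP, PKP1 and PKP3, and desmoplakin (DSP). They were chosen by gene name on a custom bovine oligonucleotide array, where each of the 10 was carried by 1 probe and 1 spot, out of 15008 probes and 14952 gene names. The same 9 castrated, ruminally fistulated bulls were biopsied when 14 months old (early fattening), 21 months old (middle) and 29 months old (late), which gave 27 one-color arrays with 9 at each stage. Arrays with the same running number in their titles were taken as the same animal, which the titles do not state. All cattle received concentrate and roughage, with a high proportion of concentrate, through all 3 stages. By the paper, the share of concentrate was higher at the middle and late than at the early stage. The concentrate also held less crude protein at each later stage. No group stayed on another diet, so stage, age, diet composition and time on the diet cannot be told apart. As in the study, the step from early to middle is the first period, that from middle to late the second, and that from early to late the total period.

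Desmosomes are the button-like junctions that bind neighboring epithelial cells and anchor their keratin filaments. Desmogleins and desmocollins are calcium-dependent cadherins whose outer parts meet between the cells. Their tails bind plakoglobin (JUP) and the plakophilins, and desmoplakin ties this plaque to keratin. In stratified epithelia such as epidermis, DSG3 and DSC3 are best known from the lower layers, and DSG1 and DSC1 from the upper, differentiated layers, while DSG2, DSC2, JUP and DSP are more widely expressed.

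A level is the log2 processed intensity of a probe minus the median of its array, and it can be compared between arrays but not between genes. A probe was well above background when the scanner software set that flag. Of the 10 members, 7 passed on each of the 27 arrays, and no member was saturated on any array. DSG1 passed on 9 early, 8 middle and 9 late arrays, and DSG2 on 9, 5 and 9. DSC1 passed on 2 early arrays and on no middle or late array, so no change is given for it, and its value in 1 early array was left out as an outlier spot.

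Arrays of the middle stage were dimmer. Their median processed signal ran from 8.06 to 28.1, against 34.5 to 47.6 at the early and 31.4 to 46.0 at the late stage, and the share of probes well above background ran from 48.5% to 71.5%, against 68.8% to 78.1% and 68.4% to 73.7%. Animals 4, 8 and 9 had the middle arrays with the fewest such probes. After centering on the array median, the median change over all 15008 probes was 0.32 (first period), −0.27 (second) and 0.03 (total) on the log2 scale. Over 6797 bright probes, those well above background on every array, it was 0.08, 0.10 and 0.14. Stages also followed slides, with early animals 1 to 8 on slide 1, early animal 9 and middle animals 1 to 7 on slide 2, middle animals 8 and 9 on slide 3, and the late animals on slides 4 and 5. Slides 1 and 2 were scanned on 1 day, here called the first scan day, and the others on other days. The late stage therefore cannot be told apart from its slides and scan days. The first period can be examined within the first scan day.

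The 6 cadherin probes lay together on chromosome 24 of the UMD_3.1 build named in the files, from 25915345 to 26448029, a stretch of 532.7 kb. DSG2, DSG3 and DSG1 followed each other with their probes on the minus strand, and DSC1, DSC2 and DSC3 with theirs on the plus strand. The plaque genes lay apart, with DSP on chromosome 23, JUP on 19, PKP1 on 16 and PKP3 on 29. The longest run of bases that any of the 10 probes shared with another probe of the array was 12 to 14 of 60, so no member's probe had a near copy on the array. The probes of 4 members, DSC3, DSP, JUP and PKP3, are shown 5′ to 3′ in lower case, because they state exactly which stretch of each transcript was measured.
DSC3: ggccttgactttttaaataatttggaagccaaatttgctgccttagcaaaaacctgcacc
DSP: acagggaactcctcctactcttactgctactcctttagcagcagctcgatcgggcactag
JUP: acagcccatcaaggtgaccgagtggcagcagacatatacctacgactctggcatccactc
PKP3: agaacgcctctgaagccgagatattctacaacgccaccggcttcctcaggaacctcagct
They match chr24:26447971-26448029 on the plus strand for DSC3, and chr23:47671219-47671278 for DSP, chr19:42616573-42616632 for JUP and chr29:51274691-51275191 for PKP3, all on the minus strand. The PKP3 probe spreads its 60 bases over 501 genomic bases. Which exon each probe lies in was not looked up, since no annotation of this build was used here.

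Among the cadherins, the desmocollins DSC2 and DSC3 took opposite courses in these median-centered levels. DSC2, a desmocollin of many epithelia, ranged from 8.16 to 8.89 at the early stage with a median of 8.63. At the middle stage it ranged from 5.59 in animal 4 to 8.52 in animal 5, with a median of 7.85. At the late stage it ranged from 8.77 to 9.25 with a median of 9.04. Early and middle values overlapped through animal 5, and every late value was above every middle value. DSC3, the desmocollin of the lower layers, ran the other way, but under normexp background correction it changed by 0.04 and then 0.09, without a middle peak. Early values lay between 2.14 and 2.97 (median 2.61), middle values between 2.82 and 3.35 (median 3.13) and late values between 2.30 and 3.04 (median 2.60). Its middle values overlapped the early range through animals 6 and 8, both at 2.82.

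DSG3, the desmoglein that partners DSC3 in the lower layers and the target of pemphigus antibodies, resembled DSC3 in direction. Early values lay between 4.53 and 5.26 (median 4.85), middle values between 5.14 and 5.60 (median 5.31) and late values between 4.71 and 5.23 (median 4.91). In each animal the middle value was the highest of its 3, although animal 9 was at 5.23 on both later arrays. DSG3 was also among the steadiest genes measured, with a standard deviation within stages of 0.19 on the log2 scale, and 96.0% of all probes varied more.

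DSG2, the desmoglein of simple epithelia and of basal cells, was faint. Early values lay between −1.19 and 0.07 (median −0.68), middle values between −1.64 and 0.31 (median −0.69) and late values between −1.35 and −0.58 (median −1.14). All 3 ranges overlapped. The middle arrays of animals 4, 7, 8 and 9 did not hold it well above background, and they gave both the lowest and the highest middle values.

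DSG1, the desmoglein of the upper layers, differed between cattle far more than between stages. At the early stage it ranged from −0.12 in animal 4 to 5.08 in animal 6 (median 2.42). At the middle stage it ranged from −2.98 in animal 4, where the probe was not well above background, to 7.53 in animal 5 (median 2.23). At the late stage it ranged from 1.17 in animal 2 to 5.44 in animal 9 (median 2.37). The medians were thus close together while single cattle moved by several log2 units in either direction, as animal 5 did from 2.24 to 7.53 to 4.85, and animal 9 from 2.42 to 0.52 to 5.44. Its standard deviation within stages was 2.18, against a median of 0.44 over all probes. Of 15008 probes 5 varied more, and none of the 7765 probes well above background on at least 26 arrays did.

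DSC1, the desmocollin that accompanies DSG1 in cornified layers, failed the background flag on 7 of 9 early and on all later arrays. The 2 passing arrays were of the early stage, animal 6 with a level of −1.79 and animal 9, whose spot was the outlier. Below background, values have no order, and DSC1 is counted but not described further.

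In the plaque, JUP, the catenin that binds the tails of both cadherin types, moved like DSG3 and DSC3. Early values lay between 0.65 and 1.11 (median 0.75), middle values between 0.95 and 2.19 (median 1.30) and late values between 0.58 and 1.12 (median 0.80). The highest middle value belonged to animal 4, whose middle array was the dimmest, and the next was 1.56. DSP, which links the plaque to keratin, followed the course of DSC2. Early values lay between 4.6 and 5.99 (median 5.31), middle values between 4.47 and 5.00 (median 4.81) and late values between 5.18 and 5.94 (median 5.55). The late values all lay above the middle values, whereas the early range covered most of both.

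The plakophilins, armadillo-repeat proteins that cluster the cadherins, had no stage whose values stood apart. PKP1, the plakophilin of upper layers, lay between 6.65 and 8.07 in early arrays (median 7.58), 7.22 and 7.96 in middle arrays (median 7.77) and 7.58 and 8.27 in late arrays (median 7.85). PKP3, found in all living layers, lay between 1.83 and 2.23 in early arrays (median 2.05), 1.29 and 3.53 in middle arrays (median 2.22) and 2.22 and 2.73 in late arrays (median 2.58). The stages overlapped for both genes. The middle values of PKP3 spread widely, with a standard deviation of 0.70 against 0.13 early and 0.17 late, and animal 4 was again the highest.

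**Figure D1:**
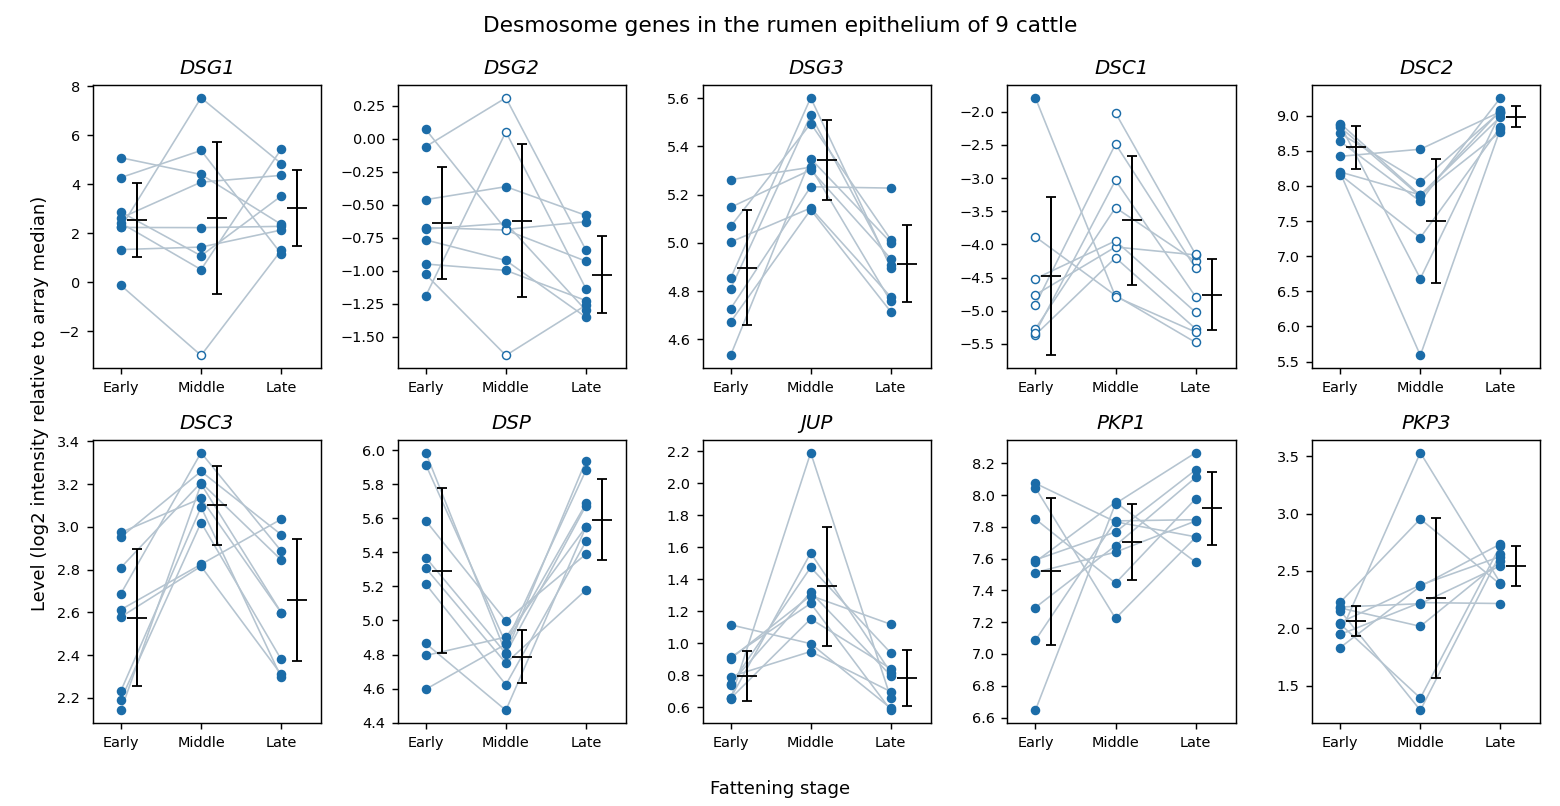
Level of each desmosome gene (log2 intensity relative to the array median, a separate scale per gene) at the 3 fattening stages, with 1 line per animal, filled points well above background, open points not, and black marks for the mean and SD of each stage. DSC2 and DSP dip at the middle stage, from means of 8.55 and 5.29 to 7.50 and 4.79, while DSG3, DSC3 and JUP peak there. Under normexp background correction the changes of DSG3, DSC3 and JUP from early to middle were only 0.02, 0.04 and 0.08.

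In the first period DSC2 and DSP fell, and DSG3, DSC3 and JUP rose. DSC2 was 2.07-fold lower at the middle than at the early stage, and DSP was 1.42-fold lower. JUP was 1.47-fold, DSC3 1.44-fold and DSG3 1.36-fold higher. These 5 of the 10 members passed an adjusted *P* of 0.05 in limma, fitted with each animal as its own block, 3 higher and 2 lower, beside 66.5% of all probes that passed, 45.3% higher and 21.3% lower, and 61.8% of probes well above background on all arrays. DSC2 alone reached a fold change of 2. The count of members was thus no higher than among all probes.

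DSC2 changed by −1.05 ± 0.22 on the log2 scale (SE, n = 9 cattle, limma adjusted *P* = 0.000504) and was lower in 8 of 9 cattle. Differences of single animals ran from −2.60 in animal 4 to 0.10 in animal 5, and without animals 4, 8 and 9 the change was −0.64 (adjusted *P* = 0.00376). DSP changed by −0.51 ± 0.14 (adjusted *P* = 0.00427) and was lower in 7 of 9 cattle, animals 5 and 9 being the exceptions. DSG3 changed by 0.45 ± 0.11 (adjusted *P* = 0.00143) and DSC3 by 0.52 ± 0.11 (adjusted *P* = 0.000617), each higher in 9 of 9 cattle. JUP changed by 0.56 ± 0.14 (adjusted *P* = 0.00165) and was higher in 8 of 9 cattle. Over single genes, the two-sided exact sign-flip test over the 9 cattle gave 0.00391 for DSG3 and DSC3, which is the smallest value it can give, 0.00781 for DSC2 and JUP, and 0.0156 for DSP. No member's early and middle ranges were apart, as was so for 13.0% of all probes. A uniform direction in all 9 cattle was found in 2 of 10 members and in 36.9% of all probes.

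The 3 rises had estimates above the median change of all probes, 0.32, and of the bright ones, 0.08. Their 95% intervals were 0.22 to 0.68 for DSG3, 0.28 to 0.76 for DSC3 and 0.27 to 0.85 for JUP. All 3 intervals included 0.32, so these rises were not told apart from the shift of the average probe. All 3 lay above 0.08. Relative to the median change of all probes DSG3 was up by 0.12, DSC3 by 0.20 and JUP by 0.23 on the log2 scale, and relative to probes well above background on all arrays by 0.37, 0.45 and 0.48. DSC2 and DSP stood at −1.38 and −0.83 relative to all probes, and at −1.13 and −0.58 relative to the bright ones. Under normexp background correction, DSG3 changed by 0.02, DSC3 by 0.04 and JUP by 0.08, and none of the 3 passed (adjusted *P* = 0.942, 0.80 and 0.233). Cyclic loess also ended the call of JUP, at 0.41 (adjusted *P* = 0.0528). A random slide block ended that of DSP, at −0.31 (adjusted *P* = 0.235).

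PKP1 changed by 0.18 ± 0.18, PKP3 by 0.20 ± 0.21, DSG2 by 0.02 ± 0.16 and DSG1 by 0.08 ± 0.78, and none of these passed. The 95% interval of DSG1, −1.56 to 1.72 on the log2 scale, was wide, and that of PKP1 ran from −0.19 to 0.56. In the 5 cattle in which both arrays held DSG2 well above background, its mean change was −0.16, with 3 of 5 lower.

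With the scan day as a fixed block the same number of members, 5, passed, and DSC2 changed by −0.91, DSP by −0.58, DSG3 by 0.47, DSC3 by 0.51 and JUP by 0.64. On the first scan day alone, which holds all early arrays and 7 middle arrays, these values were −0.92, −0.60, 0.48, 0.52 and 0.66, and 5 members passed. Under a fixed slide block the comparison rested largely on the 1 early array of slide 2 and no member passed. There DSC2 stood at 0.28 ± 0.90 and DSP at 0.28 ± 0.52, while DSG3, DSC3 and JUP stood at 0.74, 0.92 and 1.00. Within slide 2, with 1 early and 7 middle arrays, DSC2 stood at −1.06, DSP at 0.20, DSG3 at 0.64, DSC3 at 0.96 and JUP at 0.78, and no member passed.

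In the second period the same 5 genes passed with the opposite signs. DSC2 rose 2.81-fold from the middle to the late stage and DSP 1.75-fold. JUP fell 1.49-fold, DSC3 1.36-fold and DSG3 1.35-fold, and DSG2 was 1.33-fold lower, although normexp background correction turned DSG3 to a change of 0.19 and DSC3 to 0.09 and left JUP at −0.09, and cyclic loess turned DSG2 to 0.24. Of 10 members 7 passed, 2 higher and 5 lower, among them DSC1, which was below background at both stages, beside 71.5% of all probes, 27% higher and 44.6% lower, and 68.2% of the bright ones. The 2 periods share the middle arrays, so a high or low middle value enters both with opposite sign.

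DSC2 changed by 1.49 ± 0.22 (n = 9 cattle, limma adjusted *P* = 1.19e-05) and DSP by 0.80 ± 0.14 (adjusted *P* = 5.8e-05). Both were higher in 9 of 9 cattle with no overlap between the stages, as were 20.7% of all probes, 10.3% in this direction. DSC2 differed by between 0.53 in animal 5 and 3.23 in animal 4, and by 1.06 on average without animals 4, 8 and 9 (adjusted *P* = 7.32e-05). DSP differed by between 0.39 and 1.13. These 2 genes passed under every alternative tried in this period, DSC2 with changes from 1.06 to 2.24 and DSP from 0.60 to 1.48.

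JUP changed by −0.57 ± 0.14 (adjusted *P* = 0.00107) and DSG3 by −0.43 ± 0.11 (adjusted *P* = 0.00158), each lower in 9 of 9 cattle. DSC3 changed by −0.44 ± 0.11 (adjusted *P* = 0.00199) and was lower in 8 of 9 cattle, animal 6 being 0.21 higher. A single direction in all 9 cattle was seen in 44.4% of all probes. Relative to the median of all probes DSG3 stood at −0.16, DSC3 at −0.17 and JUP at −0.30, and relative to bright probes at −0.53, −0.54 and −0.67. When the slide was a random block, these 3 genes no longer passed (adjusted *P* = 0.092, 0.0529 and 0.0771, in the same order), and DSC2 and DSP did (adjusted *P* = 0.00459 and 0.0135).

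DSG2 changed by −0.41 ± 0.16 (adjusted *P* = 0.0292) and was lower in 7 of 9 cattle. Its call was lost when animal 3, 6, 8 or 9 was left out (adjusted *P* = 0.0541, 0.069, 0.0593 and 0.0954), and over the 5 cattle with both arrays well above background its mean change was −0.30, lower in 4 of 5. PKP1 changed by 0.21 ± 0.18 and PKP3 by 0.28 ± 0.21, without passing. Under normexp both passed, PKP1 at 0.88 (adjusted *P* = 0.0109) and PKP3 at 0.69 (adjusted *P* = 0.000867), and the members called were 4 higher and 2 lower. PKP3 also passed without animals 4, 8 and 9, at 0.64 (adjusted *P* = 0.00635), and without animal 4 alone, at 0.45 (adjusted *P* = 0.0315). DSG1 changed by 0.41 ± 0.78, and single cattle differed by between −4.21 and 4.92.

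**Figure D2:**
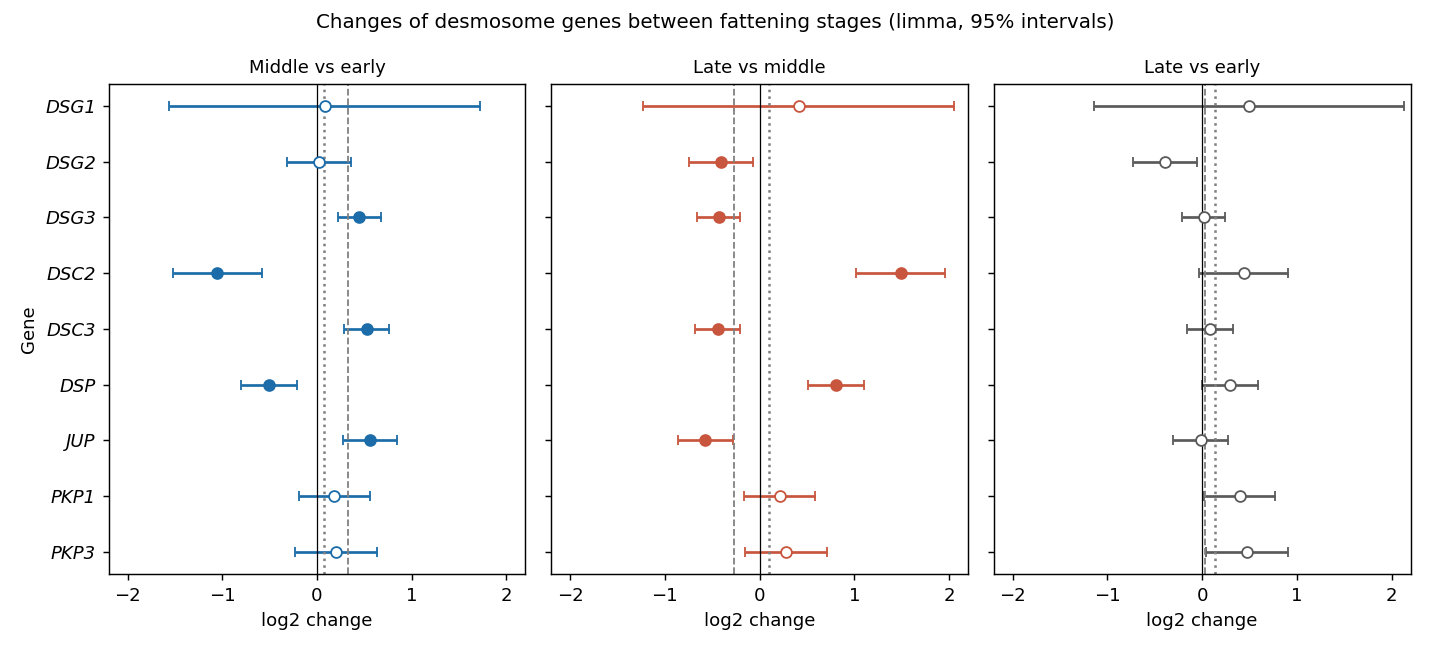
Change of 9 desmosome genes (log2, with 95% intervals) in each comparison, filled where the limma adjusted *P* was below 0.05, with the median change of all probes dashed and that of probes well above background on all arrays dotted. DSC2 sits at −1.05 and then 1.49, DSG3, DSC3 and JUP lie on the opposite side in both periods, and no gene is filled for the late against the early stage; DSC1 is left out as below background, and normexp background correction turned DSG3 and DSC3, and cyclic loess DSG2, in the second period.

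Over the total period no member passed. The limma model called 0 of 10 members, beside 20.1% of all probes, 11.2% higher and 8.93% lower, and 25.9% of the bright ones, and 4 members, DSG2, DSP, PKP1 and PKP3, had an unadjusted *P* below 0.05. No member's early and late ranges were apart, against 6.55% of all probes. The 3 genes with a middle peak had late means close to their early ones. DSG3 differed by 0.02 (95% interval −0.21 to 0.24), DSC3 by 0.08 (−0.16 to 0.32) and JUP by −0.01 (−0.30 to 0.27).

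DSC2 differed by 0.44 ± 0.22 (adjusted *P* = 0.183) and DSP by 0.30 ± 0.14 (adjusted *P* = 0.15). DSC2 was higher in 8 of 9 cattle at the late stage, with an exact sign-flip *P* of 0.00781, and DSP in 5 of 9. PKP3 differed by 0.48 ± 0.21 (adjusted *P* = 0.114) and was higher in 9 of 9 cattle, a uniformity that 17.5% of all probes had (exact sign-flip *P* = 0.00391). PKP1 differed by 0.40 ± 0.18 (adjusted *P* = 0.128), higher in 6 of 9. DSG2 differed by −0.39 ± 0.16 (adjusted *P* = 0.0958) and was lower in 8 of 9 cattle (exact sign-flip *P* = 0.00781). DSG1 differed by 0.50 ± 0.78.

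The model of all 27 arrays takes its error from all stages, including the more variable middle one. In a fit of the early and late arrays alone DSC2, PKP3 and DSG2 passed (limma adjusted *P* = 0.00966, 0.00234 and 0.0144), with the same changes, beside 32.1% of all probes. DSG2 also passed after centering on the 75th percentile, at −0.51 (adjusted *P* = 0.0358). In this comparison stage, slide and scan day cannot be told apart.

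**Figure D3:**
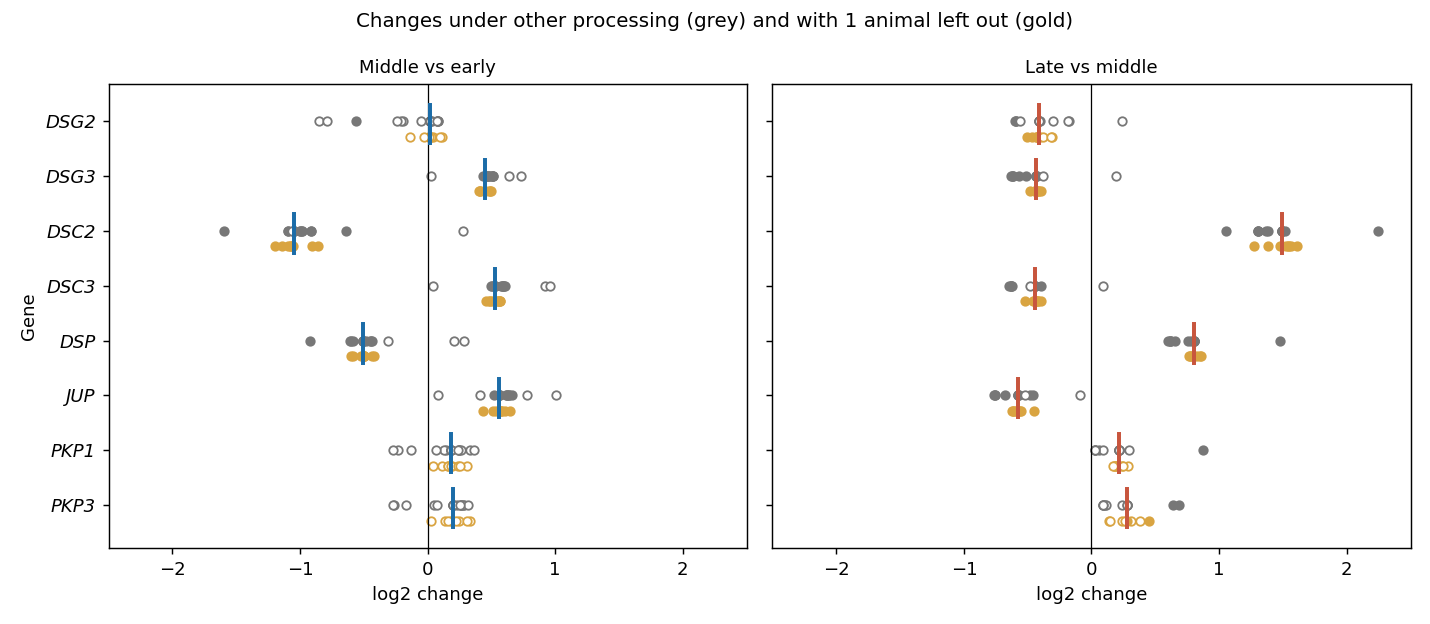
Change of 8 desmosome genes (log2) in the first and second period, with the value reported as a colored bar, other processing as grey points and fits without 1 animal as gold points, filled where the adjusted *P* was below 0.05. Leaving out an animal moved DSC2 between −1.19 and −0.86 in the first period, while slide blocks and normexp correction gave the outlying grey points.

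Other junction genes were read from 4 lists with 34 genes, of which 32 were on the array. In the first period 18 of 32 passed, 7 higher and 11 lower (56.2%, beside 66.5% of all probes, with a median change of −0.02 beside 0.32). In the second period 19 passed, 13 higher and 6 lower (59.4% beside 71.5%, median 0.27 beside −0.27), and in the total period 7 passed, 5 higher and 2 lower (21.9% beside 20.1%, median 0.14 beside 0.03). The called genes of the first and second period included DSG4, which was not well above background on any array, and CDSN, corneodesmosin, which was so on 2 early arrays, no middle array and 1 late array. No change is given for these 2.

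Among 10 further genes of the desmosome and of its cornified form, 6 passed in the first period, 3 higher and 3 lower, beside 66.5% of all probes. In the second period 8 passed, 4 higher and 4 lower, beside 71.5%. DSG4 and CDSN are 2 of the 3 higher and 2 of the 4 lower, which leaves PKP4 as the measured rise of the first period. SPINK5, an inhibitor of the proteases that cut desmosomal cadherins, changed by −1.83 ± 0.24 (adjusted *P* = 5.91e-06), and then by 2.68 ± 0.24 (adjusted *P* = 2.92e-08), in 9 of 9 cattle each time. Periplakin (PPL), a relative of desmoplakin, changed by −1.52 and then 1.49. PERP, a desmosomal membrane protein, changed by −0.68 and then 0.82. PKP4, an armadillo protein of cell contacts, went the other way, by 0.86 and then −1.30. In the total period 2 of the 10 rose, KLK5, a protease of the cornified layer, by 1.21 ± 0.23 (adjusted *P* = 0.00116) and SPINK5 by 0.85 (adjusted *P* = 0.019).

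In the adherens junction, the actin-linked neighbor of the desmosome, 3 of 7 genes fell and none rose in the first period, and 4 rose and none fell in the second. Beta-catenin (CTNNB1), the close relative of JUP in that junction, fell by 0.95 and then rose by 1.17, in 9 of 9 cattle each time (adjusted *P* = 0.000391 and 3.75e-05). JUP had moved oppositely in both periods, but under normexp background correction it stood at only 0.08 and then −0.09. CTNNB1 kept its signs and its calls under that correction. E-cadherin (CDH1) changed by −0.47 in the first period and fell by 0.64 over the total period (adjusted *P* = 0.00137). P-cadherin (CDH3) changed by 0.90 in the second period and by 0.92 over the total period (adjusted *P* = 0.00056). CTNND1 was the other gene of the junction that rose over the total period, by 0.50.

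Hemidesmosome genes, which fasten the basal cells to the basement membrane, moved as a list no further than the average probe. Their median change was 0.30 in the first period, beside 0.32 for all probes, and −0.21 in the second, beside −0.27. Of 8 genes 4 rose and 1 fell in the first period, beside 45.3% of all probes higher and 21.3% lower. In the second period 2 fell, beside 44.6% of all probes. Collagen XVII (COL17A1) changed by 1.30 and then −1.14, and integrin alpha 6 (ITGA6) by 1.07 and then −1.08, each in 9 of 9 cattle (adjusted *P* between 3.32e-06 and 3.19e-05). CD151, a tetraspanin that binds integrins, rose by 0.31, which normexp background correction turned to −0.10. Dystonin (DST), the plakin of the hemidesmosome, changed by −0.51 and was 0.50 lower over the total period (adjusted *P* = 0.00447).

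Of 7 transcription factors known from epidermal differentiation, 4 fell and none rose in the first period, and 5 rose and none fell in the second. GRHL3 changed by −1.99 ± 0.20 and then 1.82 (adjusted *P* = 2.59e-07 and 2.7e-07), KLF4 by −1.67 and then 2.06, and GRHL1, which is known to act on DSG1, by −0.98 and then 1.11. TP63, the master factor of basal keratinocytes, changed by 0.11 and then −0.11 and did not pass (adjusted *P* = 0.449 and 0.459). In the total period ZNF750 was the 1 factor that rose, by 0.68 (adjusted *P* = 0.00705).

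**Figure D4:**
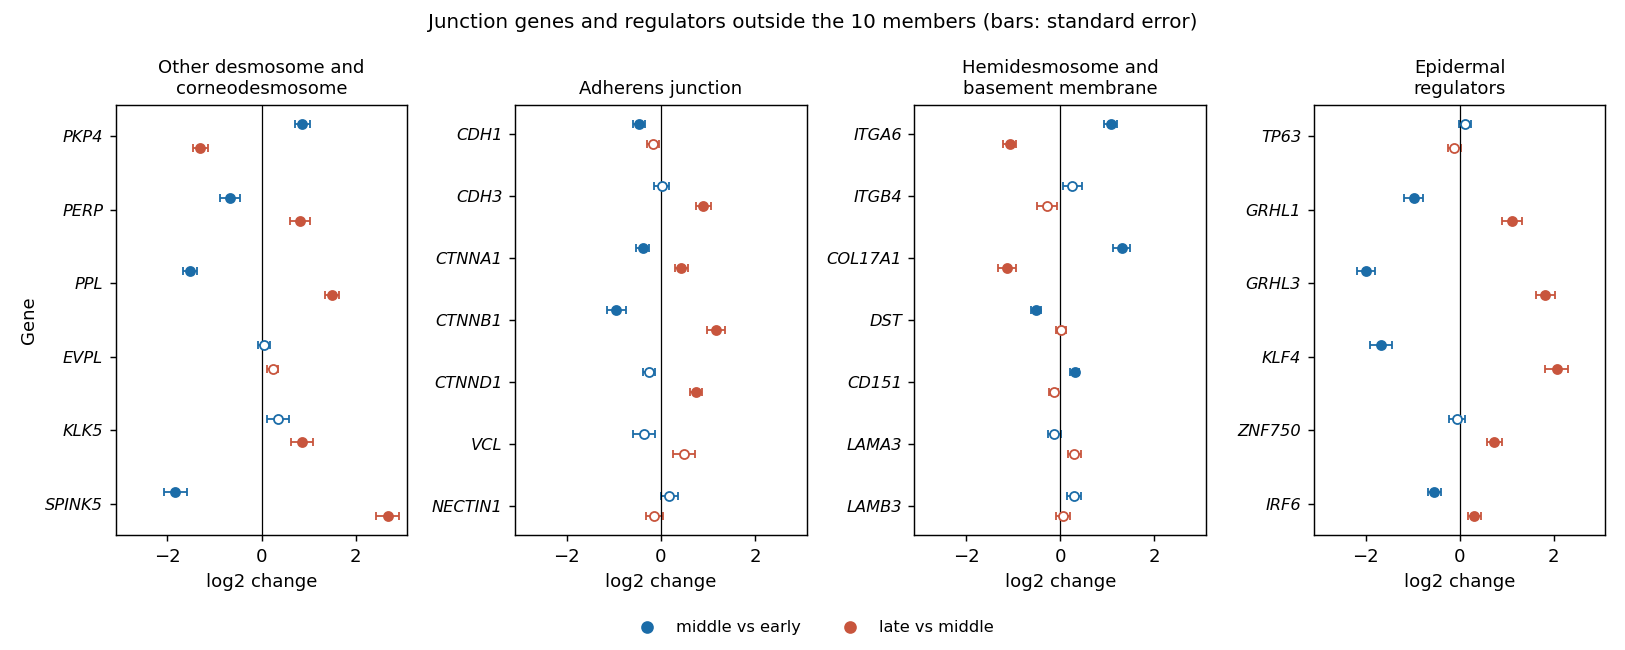
Change of junction genes and regulators outside the 10 members (log2, bars give the standard error) from early to middle (blue) and from middle to late (red), filled where the adjusted *P* was below 0.05; the genes drawn were well above background on all 9 arrays of at least 1 stage. SPINK5 (−1.83, then 2.68), GRHL3 and KLF4 fall and rise, ITGA6 and COL17A1 rise and fall, and CD151 in the first period is turned by normexp background correction.

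Cell type markers moved with the stages too. In bulk tissue, fewer cells of a type and less RNA per cell cannot be told apart. Of 7 basal keratinocyte markers 6, KRT5 and KRT14 among them, passed the background flag on each of the 27 arrays, and of 8 suprabasal markers 5 did, among them KRT10. SPRR3 passed it on 1 early, 2 middle and 5 late arrays. The summed level of 8 suprabasal markers ran from 11.2 to 11.8 early, 8.44 to 11.2 at the middle stage and 11.74 to 12.01 late. In the first period 4 of the 8 fell, beside 21.3% of all probes, with IVL at −1.99, TGM1 at −1.54, KRT6A at −1.28 and TGM3 at −0.69. KRT4, the 1 that passed upward, was not well above background on any array. The others did not fall, with KRT10 at 0.06, SBSN at 0.56 and SPRR3 at 0.86, and none of these passed. The 7 basal markers summed to between 9.91 and 10.9, 9.28 and 10.98, and 9.64 and 10.4, with KRT14 at −1.12 and KRT5 at −0.56 in the first period, opposite to ITGA6 and COL17A1.

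Summed levels of markers of other tissues, which weight the brightest probes most, had their highest medians at the middle stage in 5 of 6 lists. Single markers went the other way. LUM of the fibroblast list changed by −1.12 and then 1.62, and EPCAM of the simple epithelium list by −1.10 and then 1.65, each in 9 of 9 cattle, and PECAM1 of the endothelial list changed by −0.58 in the first period. The summed level of 5 smooth muscle markers ran from 5.80 to 7.49 early, 5.83 to 8.46 at the middle stage and 5.90 to 6.69 late, and that of 6 fibroblast markers from 6.46 to 9.55, 6.49 to 9.99 and 6.14 to 8.66. For 6 simple epithelium markers, of which VIL1 was not well above background on any array, it ran from 7.76 to 8.28, 8.52 to 9.39 and 8.19 to 8.44. For 4 red blood cell markers it ran from 5.28 to 6.09, 6.70 to 7.63 and 5.48 to 6.49, and HBA, the 1 of them well above background on all arrays, changed by 1.22 and then −1.13. The 6 endothelial markers, with CDH5 not well above background on any array, ran from 5.13 to 6.12, 5.51 to 6.62 and 5.58 to 6.26, and 7 leukocyte markers, the exception, from 4.24 to 5.30, 3.70 to 4.90 and 4.13 to 5.36. The part of these markers in the changes of the desmosome genes was not tested.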

How the data were processed

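RNA of 27 RE biopsies was hybridized to one-color arrays, and the authors deposited the scanner output of Agilent Feature Extraction, with intensity values and 0 or 1 flags for each spot. The software version is 11.0.1.1 by the output and 9.5 by the labels and methods. The extraction text of the labels names other tissues than the RE of the tissue label. The deposited log2 values of the series matrix differed, in the median of any array, by at most 0.0207 from the log2 processed signal minus the 75th percentile of each array, with column medians from −3.07 to −2.60; they served as an alternative.

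Of 15110 spots other than controls, those of a probe were averaged on the log2 scale, 103 outlier spots over all arrays were left missing, and the median of each array was subtracted. limma 3.58.1 in R 4.3.3 fitted a mean for each of the 3 stages plus an effect for each animal, with Benjamini-Hochberg adjustment over 15008 probes in each comparison and a threshold of 0.05. Arrays with the same running number in their titles were paired as 1 animal. The paper describes the same cattle at each stage and paired tests, but the titles do not state that equal numbers are the same animal. Deviations from stage means correlated at 0.158 on average within a number (−0.151 to 0.461, above 0 in 24 of 27 pairs) and −0.0197 between numbers. The exact sign-flip test used all 512 sign patterns. The script was tested on simulated data. The members and lists were chosen with earlier results of these data known. All 10 members, the called genes with the largest changes of each list, and the probe nearest to a member's pattern were named. For DSC2 the next nearest, AK3 and PCMT1, were named too. CDH3, CTNND1, PERP, TP63, GRHL1, CD151 and the markers were named after their values were seen. AFDN and PLEC had no probe found here, and 1 listed gene is counted but not reported here. Symbols follow the array design, and all 10 members matched the RefSeq gene table.

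Alternatives were 75th percentile scaling, quantile normalization, cyclic loess, normexp with an offset of 50, removal of dim probes, outlier spots kept, the series matrix, no animal block, slide blocks with statmod 1.5.0, slide 2 alone, the paired test of the methods, 2 stages in the fit and each animal left out. Blocks and subsets by scan day, the fits without animals 4, 8 and 9, and centering on bright probes were chosen after seeing the data. The number of arrays, 9 per stage, and signal over background set the precision.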

Additional observations from a re-analysis of the deposited data

Results flagged for a closer look

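Of 29 groups of 9 arrays of a member at a stage, 1 held a value that stood apart from the other 8. JUP at the middle stage was 2.19 in animal 4, and the next highest animal was at 1.56, a gap of 0.505 of the whole range of the stage. Chance alone gives such a gap in about 1 in 20 groups. The middle array of animal 4 had the lowest median signal of all arrays, 8.06. Without animal 4 JUP was still called in the first period (0.44, limma adjusted *P* = 0.00271) and in the second (−0.45, adjusted *P* = 0.0016).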

How the results depend on the processing

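The calls of DSC2 and DSP in the second period held under all alternatives run for that period. A fixed slide block, slide 2 alone and the scan-day fits could be run for the first period only, as the late stage was alone on its slides and scan days. The 2 periods therefore cannot be compared in how far their calls depend on the slide. Other calls depended on slide and background handling, and the cause was not tested. In the first period the count of members called was 3 under normexp, 4 under a random slide block, 0 under a fixed slide block and 0 within slide 2, and it was 5 to 6 with 1 animal left out. The split of higher and lower calls was 1 and 2 under normexp and 2 and 3 under cyclic loess, against 3 and 2. In the second period 2 members were called under a random slide block, and 5 to 7 with 1 animal left out; 5 were called, 2 higher and 3 lower, under quantile normalization and under cyclic loess, and normexp gave 4 higher and 2 lower, against 2 and 5. In the total period 1 member, DSG2, was called with 75th percentile scaling, with the series matrix, with centering on bright probes and without animals 4, 8 and 9; 3 were called with the paired test of the methods and with 2 stages in the fit, and 0 to 1 with 1 animal left out, the 1 being DSG2 without animal 8 (adjusted *P* = 0.0377). Without the replicate block, 5, 6 and 0 members and 18, 18 and 8 related genes were called in the 3 comparisons, and DSG2 in the second period (adjusted *P* = 0.08) was the 1 member call that the unpaired fit lost. Related genes called were 5 under a fixed slide block and 0 within slide 2 in the first period, and 4 under quantile normalization, 3 under normexp and 0 under a random slide block in the total period. With 1 animal left out they numbered 17 to 21, 18 to 22 and 7 to 10. In the second period they split into 11 higher and 11 lower with 75th percentile scaling, against 13 and 6, and in the first into 4 and 12 under quantile normalization and 4 and 14 under cyclic loess, against 7 and 11. The all-probe median was 0.39, −0.46 and −0.09 with 75th percentile scaling.

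Signs turned mainly in members that had not passed. In the first period a fixed slide block gave DSG1 −1.28, DSG2 −0.85, DSC2 0.28, DSP 0.28, PKP1 −0.27 and PKP3 −0.27, and slide 2 gave DSG2 −0.79, DSP 0.20 and PKP1 −0.13. Quantile normalization gave DSG1 −0.0535 and DSG2 −0.0527, cyclic loess DSG1 −0.0263 and DSG2 −0.56 (adjusted *P* = 0.00677), and normexp PKP1 −0.23 and PKP3 −0.26. The scan day as a block gave DSG2 −0.19 and the first scan day alone −0.21. Without animals 4, 8 and 9, DSG2 was at −0.24 and PKP3 at −0.17, DSG1 at −1.03 in the second period, and DSG1 at −0.13, DSG3 at −0.0294 and JUP at 0.0331 in the total period. In the second period normexp gave DSG3 0.19 and DSC3 0.0907, and cyclic loess DSG2 0.24. In the total period DSG3 and DSC3 were at −0.10 and −0.0393 with 75th percentile scaling, −0.13 and −0.027 under quantile normalization, −0.16 and −0.0392 under cyclic loess, −0.10 and −0.037 in the series matrix, and −0.12 and −0.052 centered on bright probes, and JUP was at 0.0472 under a random slide block. With 1 animal left out, DSG1 ran from −0.57 to 0.45 and from −0.15 to 0.99 in the 2 periods, DSG2 from −0.13 to 0.11 in the first, and DSG3 from −0.0435 to 0.0823 and JUP from −0.0431 to 0.049 in the total period.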

Other observations

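For each member bright on all 27 arrays, the genes with the most similar pattern were sought. Likeness was measured as the root mean square difference of log2 levels after each probe was centered on its own mean, over 6796 probes well above background on all arrays, which share arrays and scaling with the members. SEC63 was nearest to DSC2 at 0.211, where the median probe lay at 0.852 and DSC2 itself had a standard deviation of 0.826, and AK3 and PCMT1 followed at 0.249 and 0.256. The other nearest genes were less close beside the member's own standard deviation. IGF2R was nearest to DSP at 0.237 (own standard deviation 0.46), HUWE1 to JUP at 0.174 (0.365), CNOT6 to DSG3 at 0.185 (0.28), APITD1 to DSC3 at 0.225 (0.35), NDRG2 to PKP1 at 0.297 (0.356) and TMEM55B to PKP3 at 0.238 (0.451). No member was among the 3 nearest probes of another member.

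For DSG1, over 7764 probes well above background on at least 26 arrays, a limit chosen after its values were seen, the nearest was IRX6 at 1.57, against its own standard deviation of 2.11. In the 8 cattle whose middle and early arrays both held DSG1 well above background, 4 were higher and 4 lower at the middle stage, with a mean of 0.45 ± 2.30 (SD, n = 8).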
